A study of Mus musculus with 300 samples.

Results

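The genes described here are 10 markers of the unfolded protein response and the integrated stress response, out of 18193 genes measured on the array: Sdf2l1, Creld2, Hspa5, Dnajb9, Xbp1, Herpud1, Ddit3, Chac1, Trib3 and Asns. They were taken by name, and the probe set with the highest mean signal stood for each gene. All 10 were measured, by 19 probe sets in all, and 6 of the genes had more than 1 probe set. Their names were chosen with earlier results of these data known, so a count of changed members is a description of these genes and not a test of the pathway.

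The unfolded protein response is set off when unfolded proteins accumulate in the endoplasmic reticulum (ER). The sensors ATF6 and IRE1, the latter through splicing of Xbp1 mRNA, raise chaperones and the proteins that return misfolded clients to the cytosol for degradation. The sensor PERK phosphorylates the translation factor eIF2 alpha, as do kinases that respond to amino acid shortage, haem shortage or double-stranded RNA, and this shared branch, the integrated stress response, raises the transcription factor ATF4. In liver, which secretes much of the plasma protein, ER chaperone genes follow feeding and secretory load, and in muscle and heart ATF4 targets such as Asns, Trib3 and Chac1 are known to rise under amino acid shortage and mitochondrial stress.

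The mice received by mouth 10 mg/kg of WY14643, an agonist of PPAR-alpha, of GW501516, an agonist of PPAR-delta, or of rosiglitazone, an agonist of PPAR-gamma, or received vehicle, for 4, 8 or 15 days. These receptors are nuclear receptors that respond to fatty acids. Liver, heart, kidney and skeletal muscle were taken from the same 75 animals and measured on 300 arrays, 75 in each tissue, with 5 treated and 10 vehicle arrays for each day and so 15 against 30 over the 3 days. Strain, sex, age, genotype, feeding state and hour of collection were not given in the sources used here, and all comparisons were made within a tissue against vehicle animals of the same day. Values are log2 intensities, which were normalised separately in each tissue, so that levels were not compared between tissues. Ranks of signal among genes were used only to check each tissue's identity and to mark dim genes.

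Promoter sequences are shown for 7 of the genes because each known stress element found by search among the 10 members lies in 6 of them, and Sdf2l1, whose heart values are described first, held none. Sequences are from RefSeq on build GRCm38.p6, and all 10 members were matched. The search covered 250 bases before and 50 bases after the transcript start on both strands, with position 0 as the first base of the transcript. The elements searched were 4: the ER stress element (ERSE, CCAAT then 9 bases then CCACG), ERSE-II (ATTGG then 1 base then CCACG), the core of the unfolded protein response element (TGACGTGG) and the C/EBP-ATF composite element that ATF4 and CHOP bind (TGATGNAA). Sdf2l1, Creld2, Hspa5 and Herpud1 are shown as the 250 bases before the start, and Chac1, Trib3 and Asns as a short stretch around the match, 5′ to 3′ on the gene's strand, with the matched bases in capitals.
Sdf2l1, chr16:17132384-17132633, minus strand: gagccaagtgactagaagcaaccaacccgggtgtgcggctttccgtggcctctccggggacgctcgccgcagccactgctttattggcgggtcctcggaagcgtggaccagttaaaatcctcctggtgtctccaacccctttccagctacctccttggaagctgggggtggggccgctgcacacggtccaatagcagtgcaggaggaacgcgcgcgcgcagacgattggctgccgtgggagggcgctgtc
Creld2, chr15:88819396-88819645, plus strand: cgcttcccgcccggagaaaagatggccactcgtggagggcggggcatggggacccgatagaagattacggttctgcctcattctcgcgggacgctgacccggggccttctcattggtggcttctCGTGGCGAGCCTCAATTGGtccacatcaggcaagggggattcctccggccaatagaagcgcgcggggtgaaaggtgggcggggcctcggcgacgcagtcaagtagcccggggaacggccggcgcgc
Hspa5, chr2:34771840-34772089, plus strand: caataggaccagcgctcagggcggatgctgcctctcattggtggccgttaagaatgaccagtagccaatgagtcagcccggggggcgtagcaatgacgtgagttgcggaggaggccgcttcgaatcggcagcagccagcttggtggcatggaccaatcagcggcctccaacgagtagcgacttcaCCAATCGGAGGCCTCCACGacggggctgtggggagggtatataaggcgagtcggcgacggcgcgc
Herpud1, chr8:94386179-94386428, plus strand: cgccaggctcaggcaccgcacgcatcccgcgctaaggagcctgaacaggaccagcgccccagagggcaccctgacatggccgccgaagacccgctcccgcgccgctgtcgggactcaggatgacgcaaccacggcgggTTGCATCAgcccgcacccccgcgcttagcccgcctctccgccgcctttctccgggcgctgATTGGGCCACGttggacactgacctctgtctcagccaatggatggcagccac
Chac1, chr2:119351024-119351081, plus strand: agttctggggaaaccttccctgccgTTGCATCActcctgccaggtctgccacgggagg
Trib3, chr2:152344028-152344057, minus strand: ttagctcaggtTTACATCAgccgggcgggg
Asns, chr6:7693210-7693257, minus strand: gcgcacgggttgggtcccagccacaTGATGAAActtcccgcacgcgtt

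ERSE was found in Hspa5, at -65 to -47 on the gene's strand, and in Creld2, at -126 to -108 on the other strand. These letters at this spacing occurred in 39 of 32851 RefSeq promoters of the same length (0.119%). Herpud1 held ERSE-II at -52 to -42, which occurred in 12 promoters (0.0365%), and a C/EBP-ATF element on the other strand at -112 to -105. The C/EBP-ATF element also lay at -193 to -186 in Chac1 (other strand), at -23 to -16 in Asns, and at 14 to 21 in Trib3 (other strand), inside the transcript. That short element occurred in 1304 promoters (3.97%). The core TGACGTGG occurred in 222 promoters (0.676%) and in 0 of the 10 members. A match describes the letters in this window and not a bound site.

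Each dissected tissue held its defining transcripts at the top of its own array: the hepatocyte, cardiomyocyte, muscle fibre and kidney tubule lists had median percentiles of 100, 100, 99.9 and 99.3. Transcripts of other tissues varied between arrays. In the heart the mean of 9 hepatocyte markers ran over 6.94 to 12.32 in vehicle arrays and 6.54 to 11.89 after WY14643, and the mean of 5 adipocyte markers reached 11.89 on 1 rosiglitazone array of day 4 and 11.15 on 1 GW501516 array of day 15, against 5.15 to 8.21 in vehicle arrays. In the kidney the mean of 9 pancreas acinar markers reached 11.75 on 1 WY14643 array of day 4 and 8.22 on 1 GW501516 array, against 4.08 to 4.53 in vehicle arrays. These 2 arrays were left out in a setting chosen after seeing the data. There 30 of 30 kidney changes of a member against vehicle kept their side of the threshold. The clock gene Arntl differed between vehicle groups, with means of 7.65, 9.45 and 8.98 in the heart on days 4, 8 and 15. Since these are bulk tissues, fewer cells of a type and less RNA per cell cannot be told apart. The array that correlated least with the others of its tissue was rosiglitazone day 4 replicate 1 in heart (median correlation 0.954), GW501516 day 8 replicate 1 in kidney (0.926), WY14643 day 4 replicate 3 in muscle (0.959) and WY14643 day 4 replicate 2 in liver (0.979), and replicate 2 of WY14643 on day 4 was among the 2 least alike in each of the 4 tissues. Calls that change without the 2 least alike arrays of a tissue (a setting chosen after seeing the data) are given both ways.

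In vehicle animals, levels are given as log2 intensity from the lowest to the highest of 30 arrays, and can be read against other arrays of that tissue only. Hspa5 ran over 12.67 to 13.44 in liver, 12.93 to 13.28 in heart, 11.30 to 12.14 in kidney and 10.51 to 11.20 in muscle, and Herpud1 over 11.74 to 13.11, 11.85 to 12.81, 10.38 to 11.37 and 9.50 to 10.53. Dnajb9 ran over 11.21 to 12.57, 12.12 to 12.34, 10.24 to 10.80 and 10.05 to 10.72, and Xbp1 over 11.32 to 12.25, 10.51 to 11.36, 9.31 to 10.03 and 9.17 to 9.78.

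Sdf2l1 ran over 8.34 to 10.84 in liver, 7.70 to 8.90 in heart, 6.04 to 7.44 in kidney and 5.57 to 6.71 in muscle, and Creld2 over 9.83 to 11.82, 9.41 to 10.36, 8.48 to 9.83 and 6.88 to 7.92. Among the integrated stress response genes, Ddit3 ran over 8.39 to 10.23, 10.73 to 11.58, 7.54 to 8.85 and 8.13 to 9.44. Chac1 ran over 6.25 to 9.03, 7.55 to 8.94, 3.92 to 5.23 and 8.53 to 10.93, Trib3 over 6.82 to 9.24, 7.79 to 8.59, 3.98 to 5.16 and 4.85 to 6.93, and Asns over 5.01 to 8.82, 7.78 to 8.35, 5.75 to 7.42 and 5.70 to 8.75. Vehicle animals thus spread over more than 2 log2 units in liver for Sdf2l1, Chac1, Trib3 and Asns, and over less than 1 in heart for all members but Sdf2l1 and Chac1.

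Averaged over the 3 days, 16 of the 120 changes of a member against vehicle passed the test (limma, adjusted p under 0.05 over all 18193 genes), and 47 had an unadjusted p under 0.05. The share of all genes at the unadjusted level was not computed, so counts at that level have no background beside them. In the heart 4 members rose with WY14643, 3 with GW501516 and 1 with rosiglitazone. Those heart counts ran over 2 to 5, 2 to 3 and 1 to 4 when 1 array at a time was left out. The count with rosiglitazone was 6 without the 2 least alike hearts, and also with array weights. For these alternative fits the share of all genes called was not computed, so the shares below apply to the reported counts only. In the liver 2 fell with GW501516, while 1 rose and 1 fell with rosiglitazone. In the kidney 1 fell with GW501516 and 1 rose with rosiglitazone, and in skeletal muscle 2 rose with GW501516. The share of all genes called gives the background. In the heart it was 1.44% for WY14643, 4.17% for GW501516 and 7.51% for rosiglitazone, and in the liver 11.2%, 13.9% and 16.2%. In the kidney it was 1.74%, 6.79% and 1.52%, and in skeletal muscle 0.104%, 0.857% and 1.65%. The median change of the 10 members after WY14643 was 0.19 in heart (0.01 for all genes) and 0.12 in liver (-0.01 for all genes). It was 0.13 in kidney and 0.09 in muscle. After GW501516 the median was -0.01 in liver, 0.01 in heart, -0.01 in kidney and 0.195 in muscle. After rosiglitazone it was -0.17, -0.02, 0.12 and 0.12 in that order. An upward median was thus not particular to WY14643. No member was called after WY14643 in liver, kidney or muscle, where 2, 4 and 4 members had an unadjusted p under 0.05. Rosiglitazone in muscle also had 0 members called, with 2 at that unadjusted level. The 104 changes that were not called ran from -0.43 to 0.52 in liver, -0.17 to 0.34 in heart, -0.30 to 0.35 in kidney and -0.24 to 0.60 in muscle, and the widest 95% interval reached 0.59 to either side in liver and 0.57 in muscle but 0.25 in heart and kidney.

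**Figure D1:**
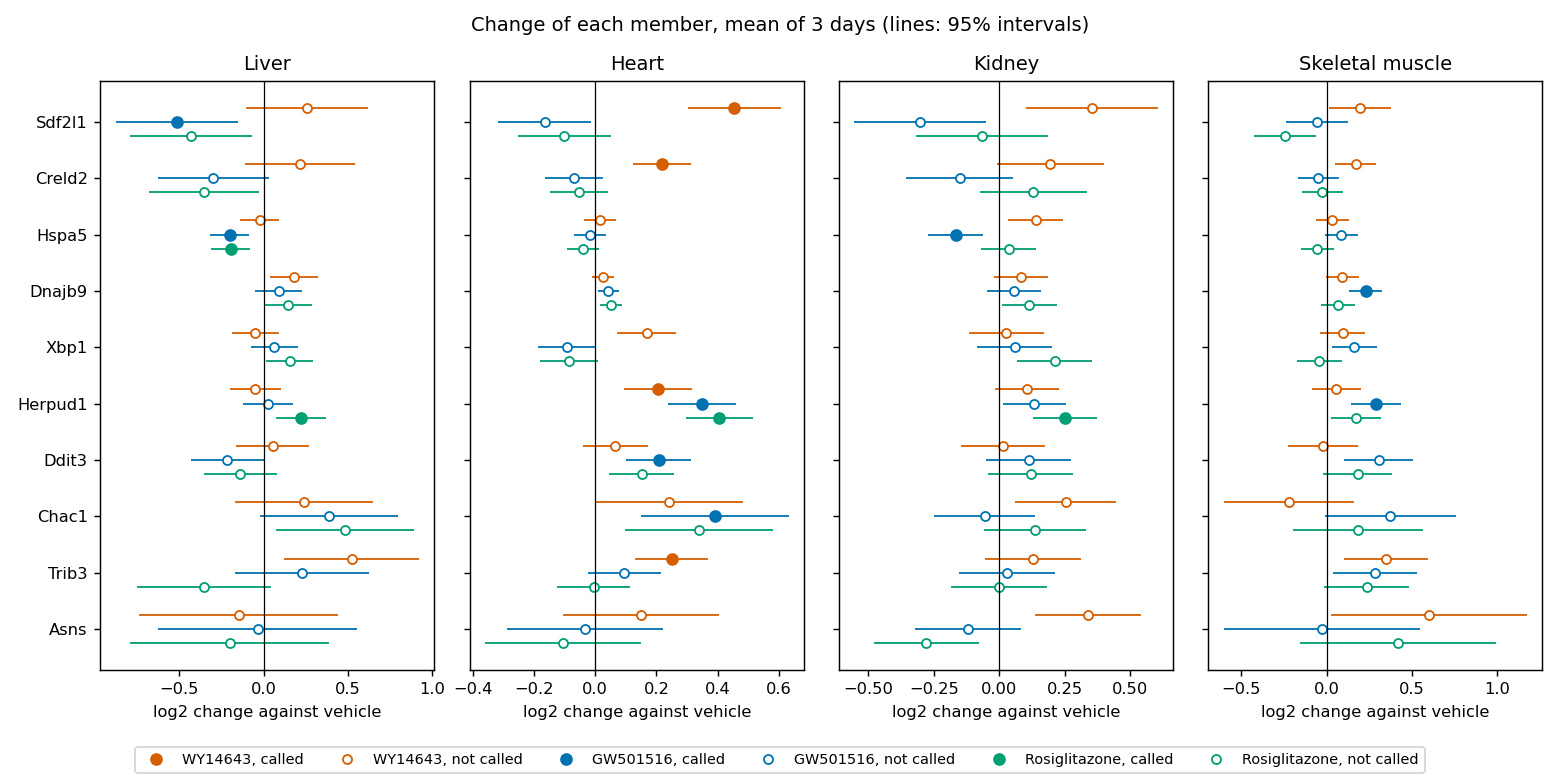
Mean change against same-day vehicle over 3 days on the log2 scale for the 10 genes in 4 tissues, with 95% confidence intervals, for 15 treated and 30 vehicle arrays per compound. Sdf2l1 in heart stands at 0.45 after WY14643, and the heart points of Herpud1 lie above 0 for all 3 compounds (0.21, 0.35 and 0.41).

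Among the chaperones and their partners, Sdf2l1 had the clearest rise in the heart after WY14643. SDF2L1 is an ER protein that works with the chaperone BiP and its J-domain partners. On day 15 the 5 WY14643 hearts read 9.18, 9.35, 9.23, 9.14 and 8.97, and the 10 vehicle hearts ran from 7.89 to 8.90 with a median of 8.41. All 5 treated hearts lay above every vehicle heart of that day, and the change was 0.73 (adjusted p = 0.00103, limma). On day 4 the treated values were 8.24, 8.77, 7.89, 8.56 and 8.65 against 7.70 to 8.33, and on day 8 they were 8.55, 8.19, 8.00, 8.07 and 8.90 against 8.00 to 8.35, with the groups overlapping on both days. Over the 3 days Sdf2l1 rose by 0.45 (SE 0.076, 95% interval 0.30 to 0.61, adjusted p = 0.000228), a 1.37-fold change, and 12 of 15 treated hearts lay above the vehicle mean of their day. The other compounds left day 15 values inside the vehicle range, at 8.01 to 8.23 for GW501516 and 7.93 to 8.63 for rosiglitazone.

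Creld2, which encodes an ER-resident, ATF6-responsive disulphide isomerase-like protein, moved with it. Its day 15 hearts read 10.38, 10.50, 10.54, 10.51 and 10.33 after WY14643, and the vehicle hearts ran from 9.86 to 10.36 with a median of 10.02. The lowest treated heart lay within the vehicle range and the other 4 lay above it. The change on that day was 0.40 (adjusted p = 0.00477), and over the 3 days Creld2 rose by 0.22 (SE 0.048, 95% interval 0.12 to 0.31, adjusted p = 0.00727), with 14 of 15 hearts above the vehicle mean of their day. Of all genes, 3.37% were called in the heart for WY14643 on day 15. Hspa5, which encodes BiP itself, read 12.93 to 13.28 in vehicle hearts and changed by 0.01, -0.02 and -0.04 after WY14643, GW501516 and rosiglitazone, with no call.

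Without the day 15 animals the WY14643 change in the heart was 0.31 for Sdf2l1 (adjusted p = 0.143). For Creld2 it was 0.12 (adjusted p = 0.623). Neither was called in that fit, which held fewer arrays. Markers of inflammatory cells moved with these genes. Of 7 macrophage and neutrophil markers, 3 rose after WY14643 in the heart: S100a8 by 1.20, S100a9 by 1.02 and Cd14 by 0.37. The mean of the 7 ran over 9.86 to 10.74 in vehicle hearts and 10.02 to 12.08 in WY14643 hearts. With that mean as a covariate, chosen after seeing the data, Sdf2l1 was still called and Creld2 was 0.17 (adjusted p = 0.187). Among 6 plasma cell markers, cells rich in ER chaperones, the mean was 6.51 to 8.02 in vehicle hearts and 6.44 to 6.96 in WY14643 hearts.

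**Figure D2:**
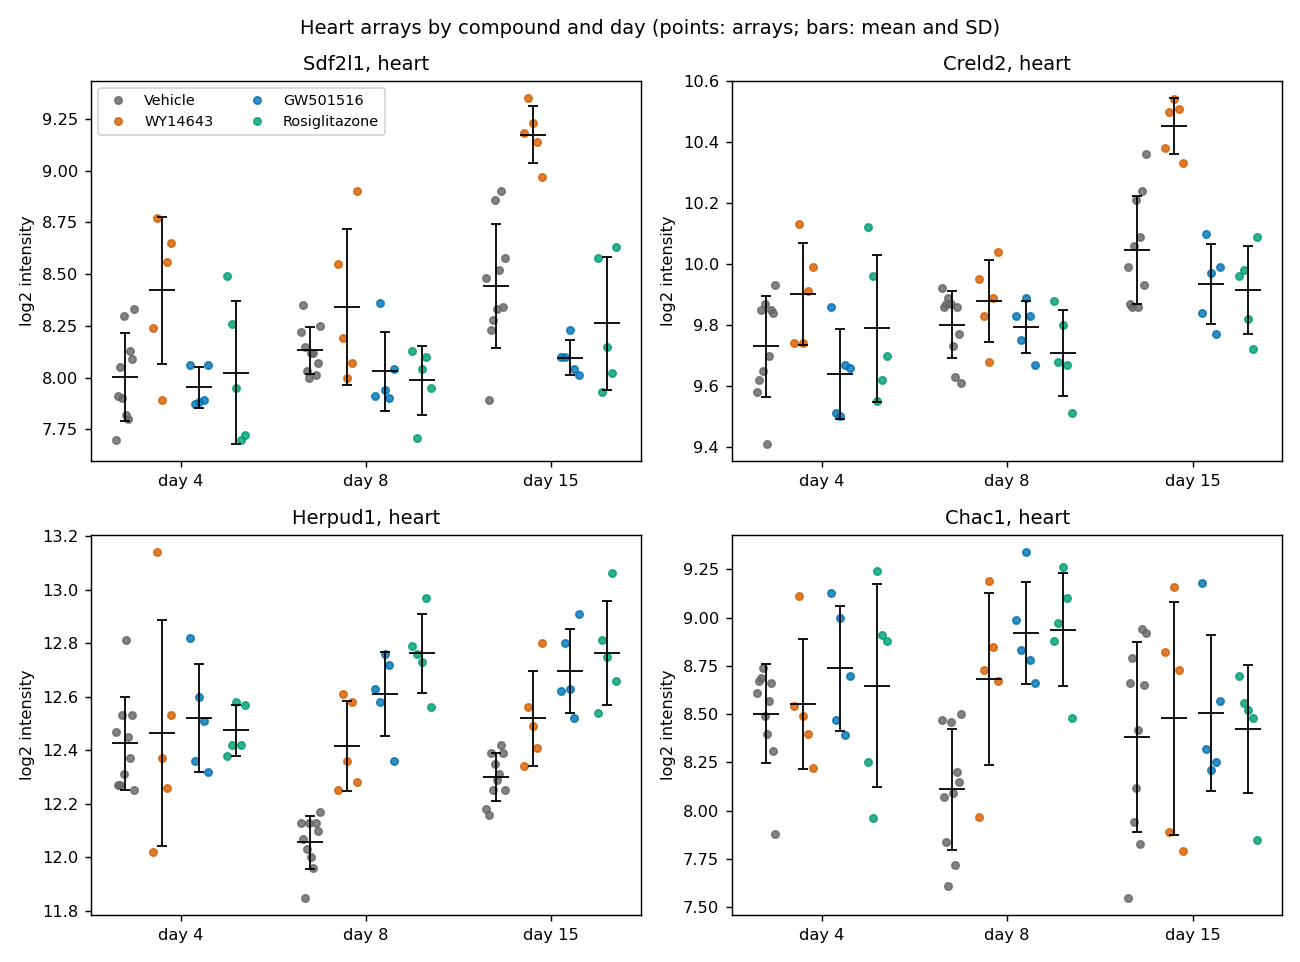
Log2 intensity of Sdf2l1, Creld2, Herpud1 and Chac1 in each heart array by day (4, 8, 15) and compound, 5 treated or 10 vehicle arrays a group, with bars at the mean and SD. The WY14643 hearts of day 15 sit at 8.97 to 9.35 for Sdf2l1, above the vehicle hearts at 7.89 to 8.90, and the day 8 hearts of GW501516 and rosiglitazone lie above vehicle for Herpud1.

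In the liver the same chaperone genes differed by compound. Sdf2l1 fell by 0.52 after GW501516 (SE 0.18, 95% interval -0.88 to -0.15, adjusted p = 0.0443), a ratio of 0.7. The GW501516 livers read 9.24, 9.37, 8.63, 9.29 and 8.54 on day 15, where vehicle ran from 9.16 to 10.84 with a median of 9.95. On day 8 they read 9.15, 8.30, 8.94, 9.68 and 9.77 against 9.11 to 10.48, and the groups overlapped on both days. The call was lost when any of 23 of the 45 arrays was left out (-0.58 to -0.44), and also without day 8 (-0.46, adjusted p = 0.272), without day 15 (-0.29, adjusted p = 0.459) and with a replicate block (-0.49, adjusted p = 0.0858). With 2 principal components of the clock genes as covariates it was 0.0175 (adjusted p = 0.99). After rosiglitazone Sdf2l1 was -0.43 (adjusted p = 0.0984) over the 3 days, and on day 8 it fell by 0.91 (adjusted p = 0.0433), with livers at 8.81, 8.41, 9.09, 8.84 and 9.26 against a vehicle median of 9.72. That day 8 change turned to 0.15 with the clock components (adjusted p = 0.98). On day 4 after WY14643 it rose by 1.08 (adjusted p = 0.0242), with livers at 9.75, 11.14, 10.02, 10.68 and 10.64 against a vehicle range of 8.34 to 10.47. The livers at 11.14 and 10.64 were the 2 least alike, and without them the rise was 0.78 (adjusted p = 0.395). The mean over days for WY14643 was 0.26 (adjusted p = 0.438). The shares of all genes called in these liver comparisons by day were 6.45% for WY14643 on day 4 and 12.8% for rosiglitazone on day 8.

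Markers of inflammatory cells moved in these livers too. Of the 7 macrophage and neutrophil markers 3 rose with WY14643, S100a8 by 1.01, S100a9 by 0.84 and Cd14 by 0.77. With GW501516 Lyz2 was called at -0.53, and with rosiglitazone S100a9 at -0.79. The mean of the 7 ran over 8.73 to 9.87 in vehicle livers and 8.55 to 11.25 in WY14643 livers, and the liver at 11.25 was the one that read 11.14 for Sdf2l1. With that mean as a covariate Sdf2l1 was 0.72 after WY14643 on day 4 (adjusted p = 0.252) and -0.61 after rosiglitazone on day 8 (adjusted p = 0.232).

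Hspa5 fell in the liver by 0.20 with each of GW501516 (95% interval -0.32 to -0.09, adjusted p = 0.0103) and rosiglitazone (-0.31 to -0.08, adjusted p = 0.011). The falls were called by day only on day 4, at -0.39 for both compounds (adjusted p = 0.0266 and 0.0346), when 1.35% and 1.23% of all genes were called. The GW501516 livers read 12.54, 12.67, 12.78, 12.55 and 12.69, all below the lowest vehicle liver of 12.86. The rosiglitazone livers read 12.42, 13.11, 12.59, 12.61 and 12.50, with 4 below that value and 1 within the vehicle range. Without day 4, or with the clock components as covariates, neither mean change over the 3 days was called. The GW501516 mean fall was also lost without day 15 and with the mean over probe sets. The rosiglitazone mean fall was lost with arrays centred on their median. With the clock components both day 4 falls were called (-0.37 and -0.48), and with the macrophage and neutrophil mean the rosiglitazone fall was -0.35 (adjusted p = 0.0554). A second probe set of Hspa5 fell by 0.21 and 0.19 (adjusted p = 0.00919 and 0.0223), and the remaining probe set, which was dim, was not called.

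Dnajb9, the J-domain co-chaperone ERdj4 that IRE1 and XBP1 induce, rose in the day 8 livers. The rise was 0.49 after GW501516 (adjusted p = 0.00516), with livers at 12.11, 12.20, 12.43, 12.28 and 12.23 against a vehicle range of 11.21 to 12.35. After rosiglitazone it was 0.36 (adjusted p = 0.0416), with livers at 12.18, 12.05, 12.18, 12.04 and 12.14. All of these livers lay above the vehicle median of 11.63, and 1 exceeded the highest vehicle liver. The share of all genes called on day 8 was 8.83% for GW501516. With the clock components as covariates the 2 changes were 0.17 and -0.06 (adjusted p = 0.791 and 0.979), and with the macrophage and neutrophil mean the rosiglitazone change was 0.36 (adjusted p = 0.076). On day 4 the GW501516 livers read 11.89, 11.95, 11.95, 11.87 and 11.84 against 11.90 to 12.57 in vehicle, with 3 of 5 below that range and no call. The mean over days of Dnajb9 was not called for any compound in the liver.

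In the kidney Hspa5 fell by 0.17 after GW501516 (95% interval -0.27 to -0.06, adjusted p = 0.0404). On day 4 the GW501516 kidneys read 11.21, 11.34, 11.35, 11.45 and 11.35 against 11.40 to 11.81 in vehicle, so that 4 of 5 lay below the vehicle range. This call was lost when any of 16 of 45 arrays was left out (-0.18 to -0.13). Without the 2 least alike kidneys the change was -0.13 (adjusted p = 0.0974). The second probe set fell by 0.28 (adjusted p = 0.0375). Sdf2l1 in the same comparison was -0.30 (adjusted p = 0.141). Its day 8 kidneys read 7.98, 6.51, 6.05, 6.0 and 6.03, and without the first of these, the array least like the other kidneys, the change was -0.42 (adjusted p = 0.0109). After WY14643 kidney Sdf2l1 read 7.54, 7.44, 7.0, 7.08 and 7.02 on day 15 against 6.25 to 7.44, a mean change over days of 0.35 that was not called (adjusted p = 0.176).

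**Figure D3:**
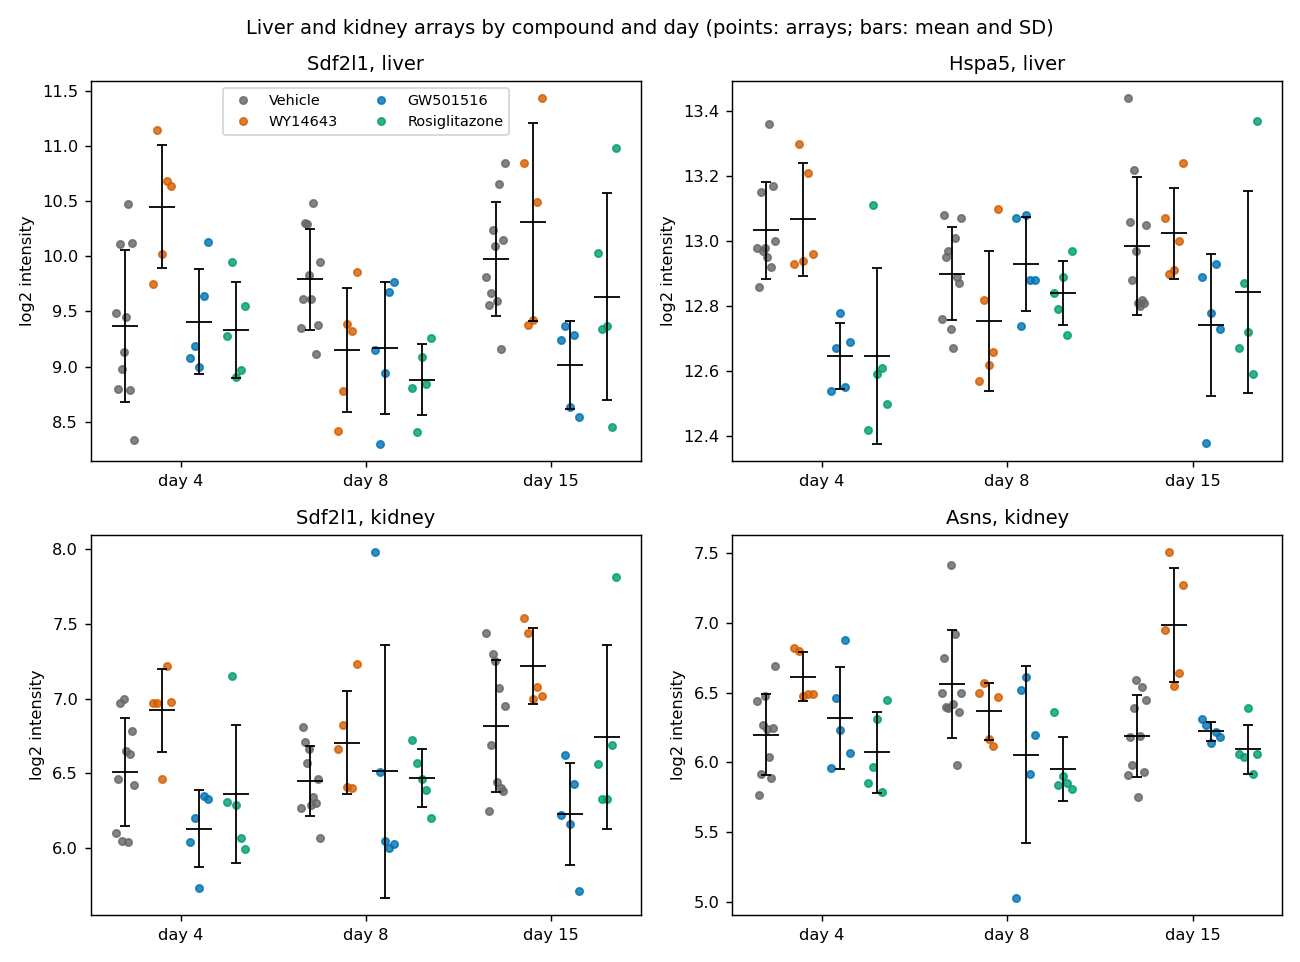
Log2 intensity per array of Sdf2l1 and Hspa5 in liver and of Sdf2l1 and Asns in kidney by day and compound, with bars at the mean and SD of 5 treated or 10 vehicle arrays. Liver Hspa5 on day 4 lies at 12.54 to 12.78 after GW501516, below the vehicle livers at 12.86 to 13.36, and 1 GW501516 kidney of day 8 stands at 7.98 for Sdf2l1, away from the other 4.

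In skeletal muscle Dnajb9 rose by 0.23 after GW501516 (SE 0.049, 95% interval 0.13 to 0.33, adjusted p = 0.00395). On day 8 the muscles read 10.93, 10.59, 10.67, 10.52 and 10.78, and vehicle ran from 10.05 to 10.49 with no overlap. Over the days 14 of 15 GW501516 muscles lay above the vehicle mean and 9 above the highest vehicle value of their day. Without day 8 or without day 15 it was 0.18 and 0.21 and was not called. The other chaperone members, Sdf2l1, Creld2 and Hspa5, were not called in muscle for any compound, with Sdf2l1 at 0.19 after WY14643 (adjusted p = 0.404) and -0.24 after rosiglitazone (adjusted p = 0.207). In the heart Dnajb9 rose after rosiglitazone on day 8 alone, by 0.14 (adjusted p = 0.00159). Those hearts read 12.32, 12.40, 12.37, 12.34 and 12.29, each above the vehicle range of 12.12 to 12.28, for a gene whose spread within groups in heart was 0.054 (residual SD). With the clock components as covariates that change was -0.04 (adjusted p = 0.955), and the muscle change with GW501516 was 0.14 (adjusted p = 0.507).

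Xbp1, the transcription factor whose mRNA IRE1 splices, was called in the heart after WY14643 on day 15 only. Its hearts read 11.27, 11.35, 11.12, 11.67 and 11.34 against 10.83 to 11.36 in vehicle with a median of 11.04, a rise of 0.28 (adjusted p = 0.0464). With the macrophage and neutrophil mean as a covariate it was 0.13 (adjusted p = 0.409), and with the clock components 0.28 (adjusted p = 0.0948). These probe sets give the level of the transcript, and the spliced form was not measured separately here. Over the 3 days the change was 0.17 (adjusted p = 0.0538), and 13 of 15 hearts lay above the vehicle mean of their day. The 3 other probe sets of Xbp1 gave 0.17, 0.23 and 0.21 in that comparison (adjusted p = 0.124, 0.0418 and 0.039). In the kidney after rosiglitazone Xbp1 was 0.21 (adjusted p = 0.152).

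Herpud1, an ER membrane protein that helps deliver misfolded proteins to the degradation machinery, rose in more comparisons than any other member, 6 of 12. In the heart it rose with WY14643 by 0.21 (95% interval 0.10 to 0.32, adjusted p = 0.0382), with GW501516 by 0.35 (0.24 to 0.46, adjusted p = 9.66e-06) and with rosiglitazone by 0.41 (0.30 to 0.52, adjusted p = 1.42e-07). It also rose with rosiglitazone in kidney by 0.25 (0.13 to 0.37, adjusted p = 0.012) and in liver by 0.22 (0.07 to 0.37, adjusted p = 0.0326), and with GW501516 in muscle by 0.29 (0.14 to 0.43, adjusted p = 0.0277). A second Herpud1 probe set was called in 5 of these 6 comparisons, with heart changes of 0.23, 0.38 and 0.45, and gave 0.22 in the kidney after rosiglitazone (adjusted p = 0.0514).

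The day 8 hearts carried most of this. Vehicle hearts of day 8 ran from 11.85 to 12.17 with a median of 12.08. The rosiglitazone hearts read 12.79, 12.76, 12.73, 12.97 and 12.56, a rise of 0.71 (adjusted p = 3.14e-07). The GW501516 hearts read 12.63, 12.58, 12.76, 12.72 and 12.36, a rise of 0.56 (adjusted p = 0.000128). The WY14643 hearts, at 12.25, 12.61, 12.36, 12.58 and 12.28, also lay above every vehicle heart, although that day was not called for this compound. On day 15 Herpud1 was 0.46 for rosiglitazone and 0.40 for GW501516 (adjusted p = 0.00276 and 0.0203), again with no overlap with vehicle hearts at 12.16 to 12.42. On day 4 vehicle hearts were higher, 12.25 to 12.81, and the rosiglitazone hearts at 12.38 to 12.58 lay inside that range. The shares of all genes called in the heart by day were 4.18% and 1.09% for rosiglitazone on days 8 and 15, and 1.63% and 0.764% for GW501516. Without the day 8 animals the heart changes were 0.25 for GW501516 and 0.26 for rosiglitazone and neither was called.

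In the kidney the day 8 rosiglitazone values were 11.24, 11.11, 11.25, 11.40 and 11.01, above every vehicle kidney at 10.38 to 10.98, a rise of 0.53 (adjusted p = 0.002, with 0.753% of all genes called). In muscle the day 8 GW501516 values were 10.82, 10.27, 10.42, 10.53 and 10.53, and 4 of 5 lay above the vehicle range of 9.50 to 10.33. In the liver the rosiglitazone values of day 15 were 13.03, 12.69, 12.58, 12.80 and 13.15 against 12.26 to 13.11, with the groups overlapping. The kidney and liver rises with rosiglitazone were not called without day 8 (0.11 and 0.17) or without day 15 (0.27 and 0.22), and the muscle rise was not called without any 1 of the 3 days. In the heart the WY14643 rise of Herpud1 was called in 7 of 15 alternative settings and lost without any of 9 of the 45 arrays. Without the 2 least alike hearts it was 0.15 (adjusted p = 0.111), and with the macrophage and neutrophil mean as a covariate 0.19 (adjusted p = 0.244). With that covariate the liver rise with rosiglitazone was 0.15 (adjusted p = 0.145).

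Herpud1 moved with the clock genes of the same arrays. Vehicle hearts had Herpud1 means of 12.43, 12.06 and 12.30 on days 4, 8 and 15, and Arntl, an activator of the circadian clock, had 7.65, 9.45 and 8.98, so the day with most Arntl had least Herpud1. Arntl means were 7.60, 7.29 and 7.20 after GW501516 and 7.32, 6.72 and 6.90 after rosiglitazone, and 9.08, 7.76 and 9.01 after WY14643. Of 17 clock genes measured, 8 rose and 2 fell in the heart with GW501516, 7 rose and 4 fell with rosiglitazone, and none was called with WY14643. The mean over days for WY14643 held opposite shifts: its day 4 hearts read 8.60 to 9.41 for Arntl, above every vehicle heart (6.53 to 8.43), and its day 8 hearts 7.44 to 8.25, below every vehicle heart (8.85 to 10.54). With 2 principal components of the clock genes as covariates, the Herpud1 change in the heart was 0.02 after GW501516, -0.10 after rosiglitazone (adjusted p = 0.648) and 0.12 after WY14643, and no Herpud1 rise in any tissue was called. The rises by day were 0.01 and 0.02 on day 8 and -0.03 and -0.17 on day 15 in heart, for GW501516 and rosiglitazone, and -0.06 on day 8 in kidney. The covariates also differ between the compared groups, so that compound and clock phase cannot be told apart by this fit, and the hour of collection was not given in the sources used here.

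Within groups, over the 75 arrays of a tissue after removal of group means, Herpud1 was lower where Arntl was higher in heart (Pearson r = -0.348, permutation p = 0.00095, adjusted p = 0.0127 over 40 relations; Spearman rho = -0.433, permutation p = 0.00021). In liver r was -0.383 (permutation p = 0.00366, adjusted p = 0.03; rho = -0.325, p = 0.0127) and in kidney -0.311 (permutation p = 0.0082, adjusted p = 0.0384; rho = -0.240, p = 0.0572). In muscle r was 0.296, which was not called (permutation p = 0.0284, adjusted p = 0.0874; rho = 0.226, p = 0.0774). Without the 2 arrays farthest from the median of Arntl, r was -0.296, -0.450, -0.299 and 0.230 in heart, liver, kidney and muscle. The same relation for Sdf2l1 was -0.107 in heart (permutation p = 0.396, adjusted p = 0.609; rho = -0.070, p = 0.565; -0.186 without 2 arrays), while in kidney it was 0.410 (permutation p = 0.00042, adjusted p = 0.0088; rho = 0.494, p = 4e-05; 0.396 without 2 arrays). Of the 40 relations of a member with Arntl, 11 were called, 7 of them negative. These relations were not among the planned ones. The share over all genes was not computed, so this count does not set the members apart from other genes.

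**Figure D4:**
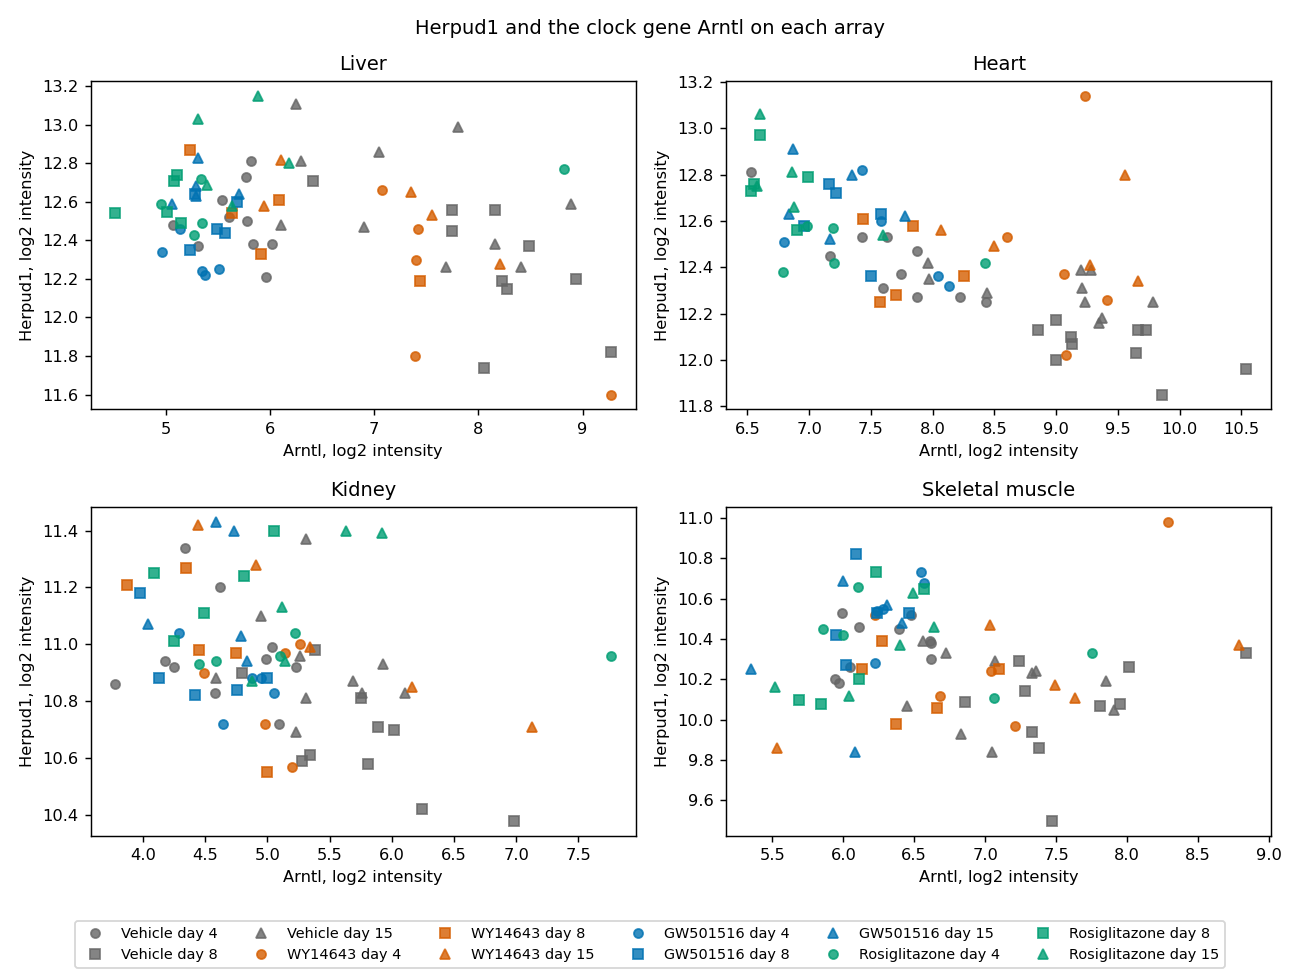
Log2 intensity of Herpud1 against that of the clock gene Arntl, 1 point per array and 75 arrays in each of the 4 tissues, coloured by compound. In heart and liver the arrays with low Arntl sit higher for Herpud1, and after removal of group means r was -0.348 and -0.383.

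Of the integrated stress response members, Ddit3 encodes the transcription factor CHOP, induced downstream of ATF4. In the heart Ddit3 rose by 0.21 after GW501516 (95% interval 0.10 to 0.31, adjusted p = 0.0101), and on day 8 by 0.42 (adjusted p = 0.00378). The day 8 GW501516 hearts read 11.37, 11.42, 11.40, 11.28 and 11.46, and the rosiglitazone hearts 11.51, 11.15, 11.10, 11.27 and 11.15. All 10 lay above every vehicle heart of that day (10.88 to 11.03), and for rosiglitazone the mean over days was 0.15 (adjusted p = 0.0651). The GW501516 change over the days was 0.15 with the clock components (adjusted p = 0.505). Without day 8 it was 0.10 (adjusted p = 0.645) and without day 15 0.18 (adjusted p = 0.112). A second Ddit3 probe set gave 0.18 for GW501516 (adjusted p = 0.202). In muscle Ddit3 after GW501516 was 0.30 (adjusted p = 0.192), with 14 of 15 muscles above the vehicle mean of their day.

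Chac1, a glutathione-degrading enzyme induced through ATF4 and CHOP, rose by 0.39 in the heart after GW501516 (95% interval 0.15 to 0.63, adjusted p = 0.0478), a 1.31-fold change. On day 8 the GW501516 hearts read 8.99, 8.83, 9.34, 8.78 and 8.66 against 7.61 to 8.50 in vehicle with no overlap, and the rise was 0.81 (adjusted p = 0.0211). The rosiglitazone hearts of day 8 read 8.88, 8.97, 9.26, 9.10 and 8.48, a rise of 0.83 (adjusted p = 0.00834) with 1 heart inside the vehicle range. The mean over days for GW501516 lost its call when any of 28 of the 45 arrays was left out, and for rosiglitazone it was 0.34 (adjusted p = 0.0719). Without day 8 the GW501516 change was 0.18 (adjusted p = 0.712), and with the clock components 0.45 (adjusted p = 0.28). In the liver Chac1 was 0.48 after rosiglitazone (adjusted p = 0.1). In the kidney Chac1 and Trib3 were dim, with mean signals below the 40th percentile of genes.

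Trib3, a pseudokinase that ATF4 and CHOP induce and that curbs them in turn, rose by 0.25 in the heart after WY14643 (SE 0.060, 95% interval 0.13 to 0.37, adjusted p = 0.0168), and 14 of 15 hearts lay above the vehicle mean of their day. On day 4 the hearts read 8.36, 9.0, 8.25, 8.37 and 8.43, on day 8 they read 8.48, 8.49, 8.34, 8.51 and 8.12, and on day 15 8.32, 8.38, 8.41, 8.20 and 8.45. Vehicle hearts of day 4 ran from 7.93 to 8.48. The treated hearts mostly lay in the upper part of the vehicle range, and 4 of 15 exceeded it. Without the day 4 heart at 9.0, which also correlated less with the other hearts (0.983), the change was 0.21 and was not called. The same held without the 2 least alike hearts (0.21, adjusted p = 0.0525). With the macrophage and neutrophil mean as a covariate it was 0.19 (adjusted p = 0.268). The call was also lost without day 4, without day 8 and with a replicate block, and held in 10 of 15 alternative settings. A second Trib3 probe set rose by 0.25 (adjusted p = 0.0359). In the liver Trib3 after WY14643 was 0.52 over the days (adjusted p = 0.0814), with day 4 livers at 9.93, 8.38, 9.62, 9.02 and 8.35 against 6.82 to 9.24 in vehicle. Without the 2 least alike livers it was 0.68 (adjusted p = 0.027).

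Asns, asparagine synthetase, the amino acid enzyme most used as a readout of ATF4, had no called mean change and varied widely between animals of a group, with a residual SD of 0.962 in liver and 0.933 in muscle. In the kidney it rose after WY14643 on day 15 by 0.79 (adjusted p = 0.0104), with kidneys at 6.95, 7.51, 6.55, 6.64 and 7.27 against 5.75 to 6.59 in vehicle. That day, 0.544% of all genes were called. 4 of these 5 kidneys lay above every vehicle kidney, and the mean over days was 0.34 (adjusted p = 0.0672), or 0.32 without the 2 least alike kidneys (adjusted p = 0.0452). In muscle after WY14643 Asns was 0.60 (adjusted p = 0.411).

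In the heart after rosiglitazone 14 of 15 arrays lay below the vehicle mean of their day for Asns and 11 below the lowest vehicle heart. The day 4 hearts read 10.66, 7.60, 7.48, 7.80 and 7.68 against 7.78 to 8.17. The day 8 hearts read 8.10, 7.74, 7.82, 7.62 and 7.81 against 7.98 to 8.33, and the day 15 hearts 8.12, 7.84, 7.66, 7.79 and 7.79 against 7.92 to 8.35. The heart at 10.66 was the array with an adipocyte marker mean of 11.89, and a GW501516 heart of day 15 with an adipocyte mean of 11.15 had Asns at 9.42. With all 15 arrays the change was -0.11 (adjusted p = 0.677), and without the day 4 array it was -0.31 (adjusted p = 0.00354). Whether adipose tissue on that heart raised its Asns was not tested.

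The compounds were compared in pairs at the same dose and days, in 12 comparisons of 10 members, with p-values adjusted over all genes in each. Of the 120 differences 17 were called, and each of them set WY14643 against another compound. In the heart Sdf2l1 was higher after WY14643 than after GW501516 by 0.62 (95% interval 0.44 to 0.79, adjusted p = 5.52e-06) and than after rosiglitazone by 0.56 (0.38 to 0.73, adjusted p = 2.16e-05). Creld2 was higher by 0.29 and 0.27 (adjusted p = 0.00124 and 0.00107) and Xbp1 by 0.26 and 0.25 (adjusted p = 0.00379 and 0.00254). Against rosiglitazone, heart Trib3 was higher by 0.26 (0.12 to 0.39, adjusted p = 0.0165) and Herpud1 lower by 0.20 (the difference was -0.20, interval -0.33 to -0.07, adjusted p = 0.0472). With the macrophage and neutrophil mean as a covariate Xbp1, Herpud1 and Trib3 against rosiglitazone were 0.12, -0.22 and 0.17 and were not called (adjusted p = 0.212, 0.061 and 0.183). Of the heart differences, Sdf2l1 alone was still called with the clock components, by 0.65 and 0.60. These heart pairs had 3.03% (WY14643 against GW501516) and 6.12% (WY14643 against rosiglitazone) of all genes called.

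In the liver WY14643 exceeded GW501516 for Sdf2l1 by 0.77 (0.36 to 1.19, adjusted p = 0.0167; 4.55% of all genes called). Against rosiglitazone it was higher for Sdf2l1 by 0.69 (adjusted p = 0.0138), for Creld2 by 0.57 (adjusted p = 0.0265) and for Trib3 by 0.88 (0.42 to 1.34, adjusted p = 0.00386), and Herpud1 differed by -0.27 (adjusted p = 0.0204), with 17.6% of all genes called. Without the 2 least alike livers, both of WY14643 on day 4, Sdf2l1 was 0.67 against GW501516 (adjusted p = 0.0759) and 0.59 against rosiglitazone (adjusted p = 0.0572), Creld2 0.51 (adjusted p = 0.0682) and Herpud1 -0.17 (adjusted p = 0.185), none of them called. Trib3 was 1.03 and still called (adjusted p = 0.0011). With the macrophage and neutrophil mean Sdf2l1 was 0.56 and 0.33 (adjusted p = 0.155 and 0.393), and with the clock components none of the 5 differences was called. In the kidney it exceeded GW501516 for Sdf2l1 by 0.66 (adjusted p = 0.00816), Hspa5 by 0.31 (adjusted p = 0.00237) and Asns by 0.46 (adjusted p = 0.0275), with 1.34% called. Asns in kidney was also higher than after rosiglitazone by 0.62 (0.38 to 0.85, adjusted p = 0.000362; 1.95% called). Without the 2 least alike kidneys Asns against GW501516 was 0.36 (adjusted p = 0.0703), and with the clock components 0.43 (adjusted p = 0.0506), while the other 3 kidney differences were called under both settings.

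No member differed between GW501516 and rosiglitazone, where 3.59%, 0.044%, 1.12% and 0.066% of all genes were called in liver, heart, kidney and muscle. In the heart that difference was -0.06 for Herpud1 (95% interval -0.18 to 0.07) and -0.06 for Sdf2l1 (-0.24 to 0.11), and these intervals do not show that the compounds acted alike. In muscle no pair differed for any member, with 0.572% of all genes called for WY14643 against GW501516 and 0.0385% for WY14643 against rosiglitazone.

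**Figure D5:**
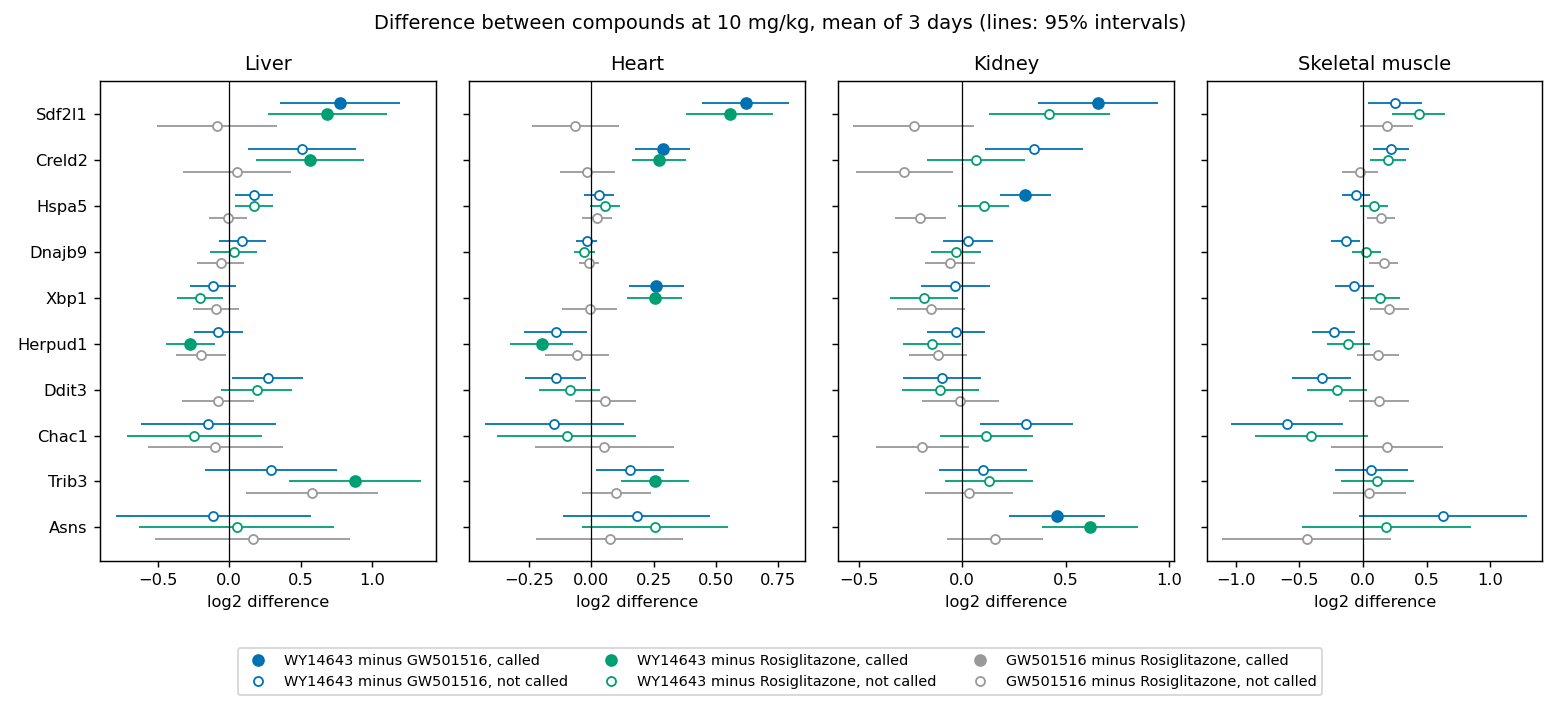
Differences between compounds on the log2 scale for the 10 genes in each tissue, mean over 3 days with 95% intervals, 15 arrays a compound; filled points were called by limma. The filled points lie in the comparisons with WY14643, with Sdf2l1 in heart at 0.62 and 0.56.

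The days of dosing were compared by the change on day 15 minus that on day 4. No member was called in any of 12 comparisons (limma, 0 of 120, with 10 of 120 at an unadjusted p under 0.05). For the unadjusted count no share of all genes was computed. The share of all genes called was 0.753%, 0% and 0.132% in liver for WY14643, GW501516 and rosiglitazone, and 0.275%, 0.0165% and 0% in heart. It was 0.022%, 0.011% and 0% in kidney and 0%, 0% and 0.0055% in muscle. A change called on 1 day and not on another, such as heart Sdf2l1 on day 15, was therefore not shown to differ between days 4 and 15.

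Since the 4 tissues came from the same animals, the change in 1 tissue was set against that in another animal by animal. Of 180 such differences 12 were called. After GW501516, the change of Herpud1 was higher in heart than in liver (liver minus heart -0.32, adjusted p = 0.015; 10.2% of all genes called) and than in kidney (heart minus kidney 0.22, adjusted p = 0.0208; 5.86% called). The change of Ddit3 was lower in liver than in heart, kidney and muscle (differences of -0.42, -0.33 and -0.52, adjusted p = 0.0054, 0.0205 and 0.00818, with 8.18% of all genes called for liver and kidney and 4.26% for liver and muscle). For Chac1 heart minus kidney was 0.45 (adjusted p = 0.032), but kidney Chac1 was dim and RMA shrinks the changes of dim genes, so this value may not measure a difference between the tissues. The change of Hspa5 was lower in liver and in kidney than in muscle (-0.29 and -0.25, adjusted p = 0.0107 and 0.0406, with 0.77% called for kidney and muscle).

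After rosiglitazone, the changes of Creld2 and Hspa5 were lower in liver than in kidney (differences of -0.48 and -0.23, adjusted p = 0.0161 and 0.00173; 7.22% of all genes called). For Xbp1 liver minus heart was 0.24 (adjusted p = 0.0373; 12.5% called) and heart minus kidney was -0.30 (adjusted p = 0.0386; 2.23% called). After WY14643 no member differed between tissues, where 6.52% of all genes were called for liver and heart, 4.69% for liver and kidney, 3.52% for liver and muscle, 1.35% for heart and kidney, 0.0055% for heart and muscle and 0.242% for kidney and muscle. The remaining pairs, with no member called, were heart and muscle after GW501516 (0.346%) and, after rosiglitazone, liver and muscle (6.08%), heart and muscle (0.5%) and kidney and muscle (0.665%). So the rise of Sdf2l1 in the heart after WY14643 was not shown to be larger than in the other tissues.

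Some pairs of members also varied together between animals of a group. Over 75 arrays a tissue, after removal of group means, 12 of 32 relations between chosen pairs of members were called, 11 of them positive. The share of all gene pairs that would be called was not computed, so this count has no background beside it. Sdf2l1 and Creld2 had Pearson r of 0.667, 0.660, 0.674 and 0.407 in liver, heart, kidney and muscle (Spearman rho 0.631, 0.651, 0.612 and 0.394). In liver, heart and kidney the permutation p was 1e-05 for r and for rho, the smallest that 100000 permutations can give, with an adjusted p of 0.000107 for r, and in muscle it was 0.00067 (adjusted p = 0.00268). Without the 2 arrays farthest from the median of Sdf2l1, r was 0.619, 0.647, 0.633 and 0.488. Sdf2l1 and Hspa5, which work in the same chaperone complex, gave 0.519, 0.187, 0.431 and 0.327 (adjusted permutation p = 0.00016, 0.272, 0.00758 and 0.0179; rho 0.476, 0.381, 0.564 and 0.328). The negative call was Ddit3 with Chac1 in muscle (r = -0.401, adjusted permutation p = 0.0185; rho = -0.284, adjusted permutation p = 0.0596; r = -0.295 without 2 arrays). Trib3 and Asns, both ATF4 targets, gave 0.433 in muscle (adjusted permutation p = 0.000457; rho = 0.415; r = 0.424 without 2 arrays). In liver, heart and kidney that pair gave r of 0.111, -0.078 and 0.028, none called (adjusted permutation p = 0.444, 0.521 and 0.831). Ddit3 with Trib3 was called in no tissue, with r of -0.308, 0.196, 0.110 and 0.182 in liver, heart, kidney and muscle. Among all genes ranked by r with Sdf2l1, Creld2 stood at 13, 1, 2 and 286 in liver, heart, kidney and muscle. Hspa5 stood at 79, 2698, 569 and 811. These arrays share labelling and RNA quality as well as cells, and what moved the genes together was not tested.

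The genes outside the stress and clock lists whose pattern was most like Sdf2l1 over the 75 arrays of a tissue, by Pearson r after removal of group means, were named by rank with no test. In the heart they were Cfp (0.580), C1qc (0.535), Fcgr3 (0.517), Nfam1 (0.510) and Blvrb (0.506), of which Cfp, C1qc and Fcgr3 are expressed in myeloid cells. In the liver they were 1810014B01Rik (0.795), Selenok (0.788), Papss1 (0.742), Slc35b1 (0.737) and Erp29 (0.731), and in the kidney Ostc (0.661), Fam136a (0.649), Sec22b (0.632), Ywhah (0.620) and Hspa4l (0.619). Selenok, Erp29, Ostc and Sec22b encode proteins of the ER or of transport from it. In muscle they were Fxyd5 (0.569), Ddost (0.564), Galnt16 (0.564), Eps15l1 (0.554) and Hexa (0.546). Among listed ER genes r in heart was 0.660 for Creld2, 0.612 for Pdia6 and 0.587 for Manf, each above Cfp. Other listed ER genes looked at ran lower in heart, from 0.178 for Dnajb11 to 0.363 for Pdia4. In liver r was 0.811 for Dnajb11 and in kidney 0.775 for Manf.

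Members were also compared between tissues of the same animal. Of 60 relations 58 were positive and 22 were called, all positive. The share over all genes was not computed, so these counts do not set the members apart from other genes. The highest r were for liver with kidney, at 0.612 for Hspa5, 0.571 for Creld2, 0.539 for Herpud1 and 0.529 for Ddit3, each over 75 animals and with group means removed (adjusted permutation p = 0.00048, 0.0009, 0.00048 and 0.003; rho 0.546, 0.422, 0.531 and 0.381; r without 2 animals 0.536, 0.439, 0.613 and 0.364). Such relations can hold any property of an animal or its hour of collection, and their source was not tested.

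The wider pathway was described by 5 gene lists, which include the members. The share of all genes called up and down in the liver was 5.51% and 5.72% for WY14643, 6.86% and 7.06% for GW501516, and 7.48% and 8.71% for rosiglitazone. In the liver after GW501516, 9 of 19 ER folding and chaperone genes fell and none rose, with a median of -0.16 against -0.01 for all genes. Besides Sdf2l1 and Hspa5 these included the ER chaperone Hyou1 (-0.48), the secreted survival factor Manf (-0.40), the chaperone Hspa13 (-0.42) and the oxidase Ero1b (-0.34). Of 12 genes of ER-associated degradation 7 fell, among them Os9 (-0.21), Edem2 (-0.20), Selenos (-0.19) and Derl2 (-0.14), with a median of -0.13. Of 10 sensors and transcription factors 2 fell, Ern1, which encodes IRE1 (-0.27), and Atf6b (-0.26), and Creb3 rose (0.21). With the clock components as covariates, 0 of 19 folding genes and 2 of 12 degradation genes were called. How many of all genes lost their call in that fit was not computed, so this loss does not set the listed genes apart.

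After rosiglitazone 5 of the 19 folding genes fell in the liver, Manf (-0.42), Hyou1 (-0.31), Hspa13 (-0.30), Pdia6 (-0.23) and Hspa5. Of the degradation genes Selenos (-0.14), Derl1 (-0.09) and Derl2 (-0.07) fell and Herpud1 rose, and of the sensors Atf6b fell (-0.18). After WY14643 0 of 19 folding genes were called (limma), while Os9 (-0.13), Derl2 (-0.11) and Ern1 (-0.30) fell and the transcription factor Creb3l2 rose (0.21).

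Of 27 genes of amino acid synthesis, transport and tRNA charging in the ATF4 programme, 15 fell and 1 rose in the liver with rosiglitazone, 9 fell with GW501516 and 6 fell with WY14643. The other 11, 18 and 21 were not called, and the medians were -0.161, -0.095 and -0.115 against -0.024, -0.008 and -0.010 for all genes. Mthfd2, a mitochondrial folate enzyme, fell by 0.75, 0.79 and 0.49 in that order, and the threonyl-tRNA ligase Tars by 0.45, 0.57 and 0.21. The amino acid transporter Slc1a4 fell by 0.93 with rosiglitazone and 0.54 with GW501516, and the glycine transporter Slc6a9 was the gene that rose (0.35). The serine synthesis enzyme Psph fell with GW501516 (-0.33), the cysteinyl-tRNA ligase Cars with rosiglitazone (-0.52), and the transporter Slc38a2 (-0.30) and the methionyl-tRNA ligase Mars1 (-0.20) with WY14643. Asns, a member of this list, was -0.20, -0.04 and -0.15 and was not called. With the clock components as covariates the counts called down were 0 for rosiglitazone, 1 for GW501516 and 6 for WY14643. Again the share of all genes called in that fit was not computed.

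Of 18 regulators of the integrated stress response, Atf4 itself fell in the liver by 0.13, 0.23 and 0.26 with rosiglitazone, GW501516 and WY14643, and Atf5 by 0.53, 0.47 and 0.27. Ppp1r15b, a subunit of a phosphatase that acts on eIF2 alpha, rose by 0.21 with rosiglitazone and 0.11 with GW501516. With rosiglitazone Cebpg also rose (0.16) and Eif2ak2, the kinase that responds to double-stranded RNA, fell (-0.21).

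In the heart few listed genes beyond the members were called. The share of all genes called up and down there was 0.605% and 0.835% for WY14643, 1.84% and 2.33% for GW501516, and 2.74% and 4.77% for rosiglitazone. With WY14643, 2 of 19 folding genes rose, and these were Sdf2l1 and Creld2 themselves. Of the 18 regulators, Cebpb, a transcription factor that pairs with CHOP, rose with all 3 compounds by 0.36, 0.37 and 0.45 (WY14643, GW501516, rosiglitazone). Atf3 fell with GW501516 by 0.63 and with rosiglitazone by 0.71, and Atf4 by 0.13 with each, while Ddit3 and Chac1 rose with GW501516. Mthfd2 fell by 0.25 and 0.23. Cars rose with WY14643 (0.16), and with rosiglitazone Ero1b (0.15) and Cebpg (0.10) rose and the proline synthesis enzyme Aldh18a1 fell (-0.19).

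In the kidney after GW501516, where 3.94% of all genes were called up and 2.85% down, 4 of 19 folding genes fell, namely Pdia4 (-0.28), Pdia3 (-0.22), Hspa5 and Dnajb11 (-0.11). Ern1 (-0.20), Edem1 (-0.14), Atf4 (-0.195) and the tRNA ligase Eprs (-0.30) also fell. The serine synthesis enzyme Psat1 (0.45), Ppp1r15a (0.21), which encodes GADD34, and Mbtps1 (0.14), a protease that cleaves ATF6, rose. After WY14643 the kidney called Hyou1 (0.22) and Psat1 (0.44) upward, with 0.923% of all genes called up and 0.813% down. After rosiglitazone Herpud1 and Sesn2 (0.27) rose, with 0.907% and 0.61%. In muscle no listed gene was called with WY14643, with 0.0495% of all genes called up and 0.055% down. Dnajb9 and Herpud1 were the calls with GW501516 (0.456% and 0.401%), and Cebpb rose by 0.54 and the cationic amino acid transporter Slc7a1 fell by 0.32 with rosiglitazone (0.627% and 1.03%).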

How the data were processed

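The authors' deposited table holds log2 intensities from RMA in Partek, per the submitters' processing notes, with versions not stated. The platform was the Affymetrix Mouse Genome 430 2.0 array, with 45101 probe sets and 300 arrays. Per the labels, 100 ng of total RNA (Qiagen miRNeasy, DNase I) was amplified and labelled with NuGEN reagents, and the labels number the animals, so replicates are separate mice. Array medians were 4.98 to 5.13 (muscle), 5.05 to 5.38 (kidney), 6.12 to 6.26 (liver) and 7.27 to 7.44 (heart). RMA shrinks dim signals, which understates the changes of dim genes. Depth has no counterpart on an array, so the number of arrays limits the precision.

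Of the probe sets 34945 named 1 gene, and the brightest stood for each of 18193 genes, with no filter. Members and gene lists were chosen with earlier results of these data known. Each tissue was fitted with limma 3.58.1 (R 4.3.3; lmFit, eBayes with a trend) on 12 group means with 63 residual degrees of freedom. P-values were two-sided and Benjamini-Hochberg adjusted over all genes in each comparison, with calls made where the adjusted p was below 0.05. Correlations used deviations from group means with 100000 permutations of the arrays (numpy 2.4.6). The rule for names was all 10 members in every comparison, up to 4 called genes of each list with the largest change plus any called the opposite way, and the 5 genes per tissue most like Sdf2l1. On simulated data for WY14643 against vehicle (18193 genes), genes changed 1.25-fold were recovered at 74% in liver, 84% in heart, 68% in kidney and 54% in muscle, and 2-fold at 100%, 100%, 98% and 98%. The changed genes were drawn at random, with noise independent between genes and no outlying arrays. These rates therefore do not describe members with a wide spread, such as Asns in liver (residual SD 0.962). The alternatives tried were other probe set rules, centring, array weights, a dim filter at the 40th percentile, smaller fits, covariates, a replicate block and omitted arrays or days.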

Additional observations from a re-analysis of the deposited data

Results flagged for a closer look

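In 34 of 480 groups of a member in 1 tissue a single array lay far from the others by Dixon's criterion, and chance marks about 1 group in 20. The groups are not independent, because the same animals recur across members and tissues. Several flags can therefore come from 1 mouse, and the count cannot be set simply against that rate. Values are log2 intensities, with the nearest other array of the group beside each. Sdf2l1 read 8.36 in heart (GW501516 day 8, replicate 2, next 8.04), 7.98 in kidney (GW501516 day 8, replicate 1, next 6.51), 7.15 in kidney (rosiglitazone day 4, replicate 2, next 6.31) and 7.81 in kidney (rosiglitazone day 15, replicate 5, next 6.69). Creld2 read 11.20 in liver (rosiglitazone day 4, replicate 2, next 9.78), 12.40 in liver (rosiglitazone day 15, replicate 5, next 10.64) and 9.42 in kidney (GW501516 day 8, replicate 1, next 8.97). Hspa5 read 13.11 in liver (rosiglitazone day 4, replicate 2, next 12.61), 13.08 in heart (rosiglitazone day 8, replicate 1, next 13.01) and 12.11 in kidney (rosiglitazone day 15, replicate 5, next 11.69). Dnajb9 read 12.46 in liver (vehicle day 15, replicate 5, next 12.21), 11.06 in kidney (WY14643 day 4, replicate 2, next 10.45), 10.05 in muscle (vehicle day 8, replicate 3, next 10.26) and 11.22 in muscle (WY14643 day 4, replicate 2, next 10.55). Xbp1 read 12.40 in liver (WY14643 day 4, replicate 2, next 11.62), 11.44 in heart (WY14643 day 4, replicate 2, next 10.98), 10.20 in muscle (WY14643 day 4, replicate 2, next 9.61), 9.11 in muscle (rosiglitazone day 4, replicate 1, next 9.30) and 9.93 in muscle (rosiglitazone day 15, replicate 4, next 9.31). Herpud1 read 12.81 in heart (vehicle day 4, replicate 6, next 12.53) and 11.18 in kidney (GW501516 day 8, replicate 4, next 10.88). Ddit3 read 9.86 in liver (WY14643 day 4, replicate 5, next 9.06), 10.38 in liver (rosiglitazone day 15, replicate 5, next 9.27), 11.44 in heart (rosiglitazone day 4, replicate 2, next 11.11) and 7.71 in kidney (rosiglitazone day 4, replicate 4, next 8.03). Chac1 read 6.51 in liver (rosiglitazone day 4, replicate 2, next 8.27), 7.88 in heart (vehicle day 4, replicate 10, next 8.31), 7.85 in heart (rosiglitazone day 15, replicate 5, next 8.48) and 3.92 in kidney (vehicle day 8, replicate 5, next 4.41). Trib3 read 9.0 in heart (WY14643 day 4, replicate 2, next 8.43) and 6.76 in muscle (GW501516 day 8, replicate 1, next 5.87). Asns read 9.42 in heart (GW501516 day 15, replicate 1, next 8.13), 10.66 in heart (rosiglitazone day 4, replicate 1, next 7.80) and 6.36 in kidney (rosiglitazone day 8, replicate 1, next 5.90).

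The change of a member differed between tissues of the same animals in 12 of 180 differences (limma, adjusted p under 0.05). After GW501516 liver minus heart was -0.32 for Herpud1 and -0.42 for Ddit3, and liver minus kidney was -0.33 for Ddit3. Liver minus muscle was -0.29 for Hspa5 and -0.52 for Ddit3. Heart minus kidney was 0.22 for Herpud1 and 0.45 for Chac1, whose kidney signal was dim and so open to the shrinkage of RMA, and kidney minus muscle was -0.25 for Hspa5. After rosiglitazone liver minus heart was 0.24 for Xbp1, liver minus kidney was -0.48 for Creld2 and -0.23 for Hspa5, and heart minus kidney was -0.30 for Xbp1.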

How the results depend on the processing

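Counts of members called are given as the reported count and then the count under the alternative. The share of all genes called under each alternative was not computed. A count that moved may therefore reflect a change in calls over all genes. Arrays centred on their median gave 2 and 1 for liver with rosiglitazone and 2 and 1 for muscle with GW501516. The mean over probe sets gave 2 and 1 for liver and 1 and 0 for kidney with GW501516, and the second probe set gave 2 and 1 for liver and 3 and 1 for heart with GW501516. Sdf2l1 and Chac1 have 1 probe set, so their changes of -0.52 and 0.39 were identical there and only the adjustment over another table moved them (adjusted p = 0.0527 and 0.0537). Array weights gave 0 and 1 in liver with WY14643, 2 and 5 in liver, 1 and 6 in heart and 1 and 2 in kidney with rosiglitazone, 0 and 2 in kidney with WY14643, 1 and 3 for WY14643 against rosiglitazone in kidney, and in muscle 0 and 2 for WY14643 against GW501516 and 0 and 1 for GW501516 against rosiglitazone. The filter at the 40th percentile gave 1 and 3 in heart with rosiglitazone and 0 and 1 in kidney with WY14643. Fits of only the compound and vehicle arrays gave 3 in heart and 2 in kidney with rosiglitazone, 2 in kidney with WY14643 and 0 in kidney with GW501516.

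Clock components as covariates gave in liver 1, 1 and 0 with WY14643, GW501516 and rosiglitazone and 0 for WY14643 against either compound. In heart they gave 0 with GW501516 and rosiglitazone and 1 for WY14643 against either. In kidney they gave 2 with GW501516, 0 with rosiglitazone and 3 for WY14643 against rosiglitazone, and for muscle 0 with GW501516. With them liver Sdf2l1 with GW501516 turned to 0.0175, liver Herpud1 to -0.38 with GW501516 and -0.28 with rosiglitazone, and Herpud1 with rosiglitazone to -0.10 in heart and -0.12 in kidney. By day and between compounds, where this setting was added after seeing the data, rosiglitazone changes turned to 0.15 for Sdf2l1 and -0.0647 for Dnajb9 in liver on day 8, -0.0357 for Dnajb9 in heart on day 8, and for Herpud1 to -0.17 in heart on day 15 and -0.0621 in kidney on day 8. Herpud1 with GW501516 in heart on day 15 turned to -0.0272, and WY14643 minus rosiglitazone for Herpud1 to 0.21 in liver and 0.21 in heart. The cause was not tested.

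Replicate numbers did not pair arrays (median correlation of same-numbered arrays 0.002, -0.005, 0.003 and 0.047 in liver, heart, kidney and muscle, with 7, 2, 7 and 10 of 75 arrays closest to their own number). A replicate block gave 1 member in liver with WY14643, 1 in liver with GW501516 and 0 in kidney with GW501516. The hepatocyte covariate gave 2 in heart with rosiglitazone.

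Without day 4 the counts were 1 in liver, 0 in kidney and 1 in muscle with GW501516 and 5 in heart with rosiglitazone. Without day 8 they were 1 in liver, 0 in heart and 0 in muscle with GW501516, 1 in liver, 0 in heart and 0 in kidney with rosiglitazone, and 2 in heart and 1 in kidney with WY14643. Without day 15 they were 0 in liver, kidney and muscle with GW501516, 3 in heart and 0 in kidney with rosiglitazone, and 1 in heart with WY14643. These fits use fewer arrays.

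The last 2 settings were chosen after seeing the data. Without the 2 arrays least like the rest of a tissue, counts with WY14643 were 1 in liver, 2 in heart and 1 in kidney, 6 in heart with rosiglitazone, and in liver 0 and 2 for WY14643 against GW501516 and rosiglitazone. With the macrophage and neutrophil mean as covariate they were 1 in liver and 1 in heart with WY14643, 1 in liver with rosiglitazone, 0 and 2 for WY14643 against GW501516 and rosiglitazone in liver, and 3 for WY14643 against rosiglitazone in heart.

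Leaving out 1 array at a time gave 2 to 5, 2 to 3 and 1 to 4 for the heart with WY14643, GW501516 and rosiglitazone. For the liver the same compounds gave 0 to 1, 1 to 2 and 1 to 3, and for the kidney 0 to 1, 0 to 1 and 1 to 1. In muscle it gave 1 to 2 with GW501516. For WY14643 against GW501516 it gave 3 to 4 in heart and 2 to 3 in kidney, and against rosiglitazone 3 to 5 in liver, 4 to 6 in heart, 0 to 1 in muscle and 1 to 2 in kidney. For day 15 minus day 4 with WY14643 in heart it gave 0 to 1. Without a trend in the variance prior 120 of 120 changes against vehicle kept their direction and side of the threshold, and with the replicate block 113 did, against 103 with array weights and 105 with the clock components.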
